A study of Mus musculus with 8 samples.

Results

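Gata3, Gata1, Il1rl1, Klrg1, Areg and Pparg are genes tied to regulatory T (Treg) cells of non-lymphoid tissue. They were taken by name from a table of read counts per gene, where they are 6 of 24108 named genes, and all 6 passed the filter on low counts. RNA had been sequenced from CD4 T cells that expressed Foxp3, the transcription factor that defines Treg cells, sorted from mesenteric lymph nodes of mice. The mice carried the alleles Foxp3DTR-GFP/Thy1.1, CD4CreER/wt and R26lsl-tdTomato/wt, so that all 4 populations came from the same strain. Foxp3 was reported by GFP joined to the diphtheria toxin receptor or by Thy1.1, and the labels name the toxin receptor with GFP alone. Mice were reared under AVNM (an abbreviation left unexplained by the labels) with a diet defined in its amino acids. Tamoxifen and diphtheria toxin were given over about 3 weeks, and tamoxifen let the CD4-driven CreER switch on tdTomato in T cells. The toxin acts on cells that carry its receptor, which the labels place with GFP and not with Thy1.1. What the toxin did to the GFP populations was not tested. A chow diet and an SPF (specific-pathogen-free) fecal microbiota followed, and cells were sorted 12 days after colonization. Cells are called marked where they were tdTomato-positive and unmarked where tdTomato-negative. Each of the populations, marked or unmarked with Thy1.1 or GFP, had 2 libraries. Per the design text, tdTomato falls on Foxp3-negative CD4 T cells outside the thymus, so a tdTomato-positive GFP cell is a candidate for a cell that gained Foxp3 after marking. The labels do not say when tdTomato-positive Thy1.1 cells gained Foxp3, which cells are tdTomato-negative, or the age of the mice. Nor do they state the sex, but Foxp3 lies on the X chromosome, so mice with both reporter alleles would be female.

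Libraries are called by their number in the table, 1 and 2 for Thy1.1 and 3 and 4 for GFP. Library totals ran from 38085686 to 47908198 counts, and levels are given as CPM, TMM-scaled counts relative to the library total over named genes. A count of 0 allows a level of up to 0.0626 to 0.0788 CPM (3 counts), which covers counting error only. Foxp3 lay between 126 and 201 CPM and a list of 6 T cell genes in the table summed to between 4176 and 5799 CPM, so the labelled cell type was present in every library. Thy1, which encodes the antigen of the Thy1.1 reporter, ranged from 36.3 to 51.6 CPM with GFP and from 72.6 to 93.2 CPM with Thy1.1. Markers of myeloid and dendritic cells (16 genes) summed to 295 CPM in unmarked GFP library 3 and to 46.7 to 97.3 CPM in the other libraries. Markers of erythroid cells (8 of 11 genes in the table) summed to 47.96 CPM in marked GFP library 3, to 6.15 CPM in library 4 of that population and to 1.84 to 3.76 CPM elsewhere. Several estimates of the 6 genes moved when library 3 of a GFP population was left out, and those values stand beside them.

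GATA3 and GATA1 are zinc finger transcription factors that bind the same short DNA word. GATA3 directs T cell development and the Th2 programme and is kept by Treg cells of gut and skin, where it acts beside ST2, the receptor for the alarm cytokine IL-33 encoded by Il1rl1. IL-33 released by damaged tissue expands ST2-positive Treg cells, many of which carry the inhibitory lectin receptor KLRG1, which binds E-cadherin. Such cells can release amphiregulin (Areg), an EGF receptor ligand used in tissue repair, and those of visceral fat depend on the nuclear receptor PPARγ (Pparg). GATA1 is best known from erythroid cells, megakaryocytes and mast cells, and has also been placed among the factors that act with Foxp3.

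The sequences before the transcription starts of 5 of the 6 genes, all but Klrg1, were matched by symbol in RefSeq promoters of the build GRCm38.p6, at 8 starts. The 250 bases before each start were searched on both strands for GATA words, for the cyclic AMP response element TGACGTCA and for AP-1 words. GATA words were AGATAA, its variant form AGATAG, the related word TGATAA and its variant form TGATAG. AP-1 words were TGAGTCA, and with the other central base TGACTCA. Of 32851 mouse promoters of the same length, 26.5% held at least 1 GATA word, 1.55% the cyclic AMP response element and 4.46% an AP-1 word. The upstream start of Il1rl1 had 5 GATA words, a number reached or passed by 14 of the promoters (0.0426%), and the downstream start had 1. Areg had 1 cyclic AMP response element, and the searched windows of Gata3, Gata1 and Pparg held none of these words. The windows with a match are shown, since both GATA factors are among the 6 genes. They lie on the plus strand, at chr1:40429320-40429569 (first Il1rl1 start), chr1:40439379-40439628 (second Il1rl1 start, inside the gene) and chr5:91139349-91139598 (Areg). Capitals mark GATA words in Il1rl1 and the cyclic AMP response element in Areg.
Il1rl1 first start: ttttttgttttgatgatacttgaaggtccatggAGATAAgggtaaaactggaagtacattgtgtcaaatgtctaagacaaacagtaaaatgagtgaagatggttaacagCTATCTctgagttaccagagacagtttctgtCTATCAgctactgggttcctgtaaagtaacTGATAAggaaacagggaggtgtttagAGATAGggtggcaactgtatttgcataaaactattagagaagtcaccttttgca
Il1rl1 second start: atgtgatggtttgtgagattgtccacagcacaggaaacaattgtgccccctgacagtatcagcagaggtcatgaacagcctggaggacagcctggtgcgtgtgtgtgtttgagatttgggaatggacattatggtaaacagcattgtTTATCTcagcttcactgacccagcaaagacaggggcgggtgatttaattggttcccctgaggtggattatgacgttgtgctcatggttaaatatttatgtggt
Areg start: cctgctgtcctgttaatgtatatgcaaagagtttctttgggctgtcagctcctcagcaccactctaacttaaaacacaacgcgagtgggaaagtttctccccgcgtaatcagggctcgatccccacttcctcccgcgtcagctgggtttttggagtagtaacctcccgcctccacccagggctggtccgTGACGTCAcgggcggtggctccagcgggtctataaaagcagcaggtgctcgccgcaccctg
A match describes letters and not a bound site, and the counts are per gene, so they do not divide Il1rl1 reads between the starts.

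Most of the called changes among the 6 genes were between marked and unmarked GFP cells. Gata3, Il1rl1 and Klrg1 rose in marked GFP cells and Gata1 fell, while Areg and Pparg did not pass the threshold. These were 4 of 6 genes, where 12.6% of 13989 tested genes passed in this comparison (6.24% higher and 6.4% lower). The 6 were chosen with earlier results of these data known, so the share gives scale and is no test. Calls are those of edgeR's quasi-likelihood test with a Benjamini-Hochberg adjusted p under 0.05 over all tested genes, and errors of log2 fold changes are standard errors. A change by a value with no fold is on the log2 scale. Nothing in the labels ties the libraries to separate mice, so p-values measure the spread between libraries, and that spread may be technical. In bulk RNA, fewer cells that express a gene and less RNA per cell cannot be told apart.

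Among the transcription factors, Gata3 had the highest levels. It was at 167 and 157 CPM in unmarked Thy1.1 cells and at 163 and 151 CPM in unmarked GFP cells. It was at 219.8 and 228 CPM in marked Thy1.1 cells and at 416 and 229.65 CPM in marked GFP cells. Both marked populations lay above both unmarked ones, which overlapped, and the marked populations came within 2 CPM of each other, with only GFP library 3 clearly higher. Between GFP populations Gata3 rose 2.06-fold (log2 1.04 ± 0.23, edgeR adjusted p = 0.0281). This call was lost in 6 of 8 fits with 1 library left out, those without any of the Thy1.1 or unmarked GFP libraries (edgeR adjusted p up to 0.16), and the change was 0.51 without marked GFP library 3, with an edgeR adjusted p of 0.0412. Exons of Gata3 overlap those of the antisense gene 9230102O04Rik, which had 0 to 163 counts per library against 6736 to 18458 for Gata3, and the library kit does not mark strand.

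Gata1 was lowest where Gata3 was highest. It was at 63.5 and 50.2 CPM in unmarked Thy1.1 cells, at 38.3 and 37.7 CPM in marked Thy1.1 cells and at 30.1 and 48.4 CPM in unmarked GFP cells. In marked GFP cells it was at 3.23 and 2.34 CPM, from 143 and 87 counts. The last population was far below every other library, and the middle populations overlapped. Gata1 was 14.1-fold lower in marked than in unmarked GFP cells (log2 -3.81 ± 0.30, edgeR adjusted p = 0.000767) and 13.6-fold lower than in marked Thy1.1 cells (log2 -3.77 ± 0.30, edgeR adjusted p = 0.000842). Both calls held in 8 of 8 fits with 1 library left out.

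Markers of other cells that use GATA1 were read beside it. Gata2, the GATA factor of mast cells and progenitors, had 1 count in all 8 libraries together, and Fcer1a, part of the IgE receptor, had 0. Mast cell and basophil markers (10 genes) summed to 1.32 to 9.97 CPM, with 6 to 8 of the genes at 0 in every library. Of these Cpa3, a mast cell protease, was at 4.13 to 7.03 CPM in 6 libraries and at 1.74 and 0.0537 CPM in marked GFP cells (edgeR adjusted p = 0.138). Mcpt8, a basophil protease, had 192 counts in marked GFP library 3 and 0 elsewhere. Erythroid markers were highest in the population where Gata1 was lowest. Megakaryocyte and platelet markers (7 genes) summed to at most 2.68 CPM. The part of these cells in the level of Gata1 was not tested.

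Il1rl1 and Klrg1, the surface receptors, shared a low point in unmarked GFP cells. Il1rl1 was at 33.2 and 43.4 CPM in unmarked Thy1.1 cells, at 32.7 and 50.6 CPM in marked Thy1.1 cells and at 26.4 and 30.8 CPM in marked GFP cells. It was at 9.39 and 5.06 CPM in unmarked GFP cells. The Thy1.1 populations overlapped, marked GFP cells lay just below them, and unmarked GFP cells lay apart. Il1rl1 rose 3.96-fold from unmarked to marked GFP cells (log2 1.99 ± 0.34, edgeR adjusted p = 0.0121). Without unmarked GFP library 4 the change was 1.57 with an edgeR adjusted p of 0.0635.

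Klrg1 was at 27.6 CPM in each unmarked Thy1.1 library and at 55.5 and 45.7 CPM in marked Thy1.1 cells. It was at 3.11 and 0.902 CPM in unmarked GFP cells and at 144 and 56.1 CPM in marked GFP cells. No populations overlapped, but marked GFP library 4 was within 1 CPM of the higher marked Thy1.1 library. Klrg1 rose 49.8-fold between the GFP populations (log2 5.64 ± 0.65, edgeR adjusted p = 0.0028), the largest called change of the 6 genes, and remained called in 8 of 8 fits with 1 library left out, where the change lay between 4.76 and 6.79. In that same step, ILC2 markers (9 genes, of cells that also carry ST2 and KLRG1) summed to 18.05 to 52.7 CPM in 6 libraries and to 108 and 61.0 CPM in marked GFP cells. Of 8 tested ILC2 markers 3 rose between the GFP populations, Nmur1, Il17rb and Il9r, where 12.6% of all tested genes passed (6.24% higher). Kit, at 27.95 and 18.57 CPM in unmarked and at 36.64 and 17.14 CPM in marked GFP cells, did not pass. Il13 was at 0 in every library and Il5 at 0 in all marked ones. CD8 T cell and NK cell markers (10 genes) summed to 135 and 56.2 CPM in marked GFP cells and to 46.2 to 75.5 CPM elsewhere. Of these sums, Nkg7 alone made 115.8 and 26.7 CPM in marked GFP cells and 10.1 to 23.8 CPM elsewhere. Between the GFP populations 2 of 8 tested markers, Cd8b1 and Eomes, fell. The part of either cell type in Klrg1 was not tested.

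**Figure D1:**
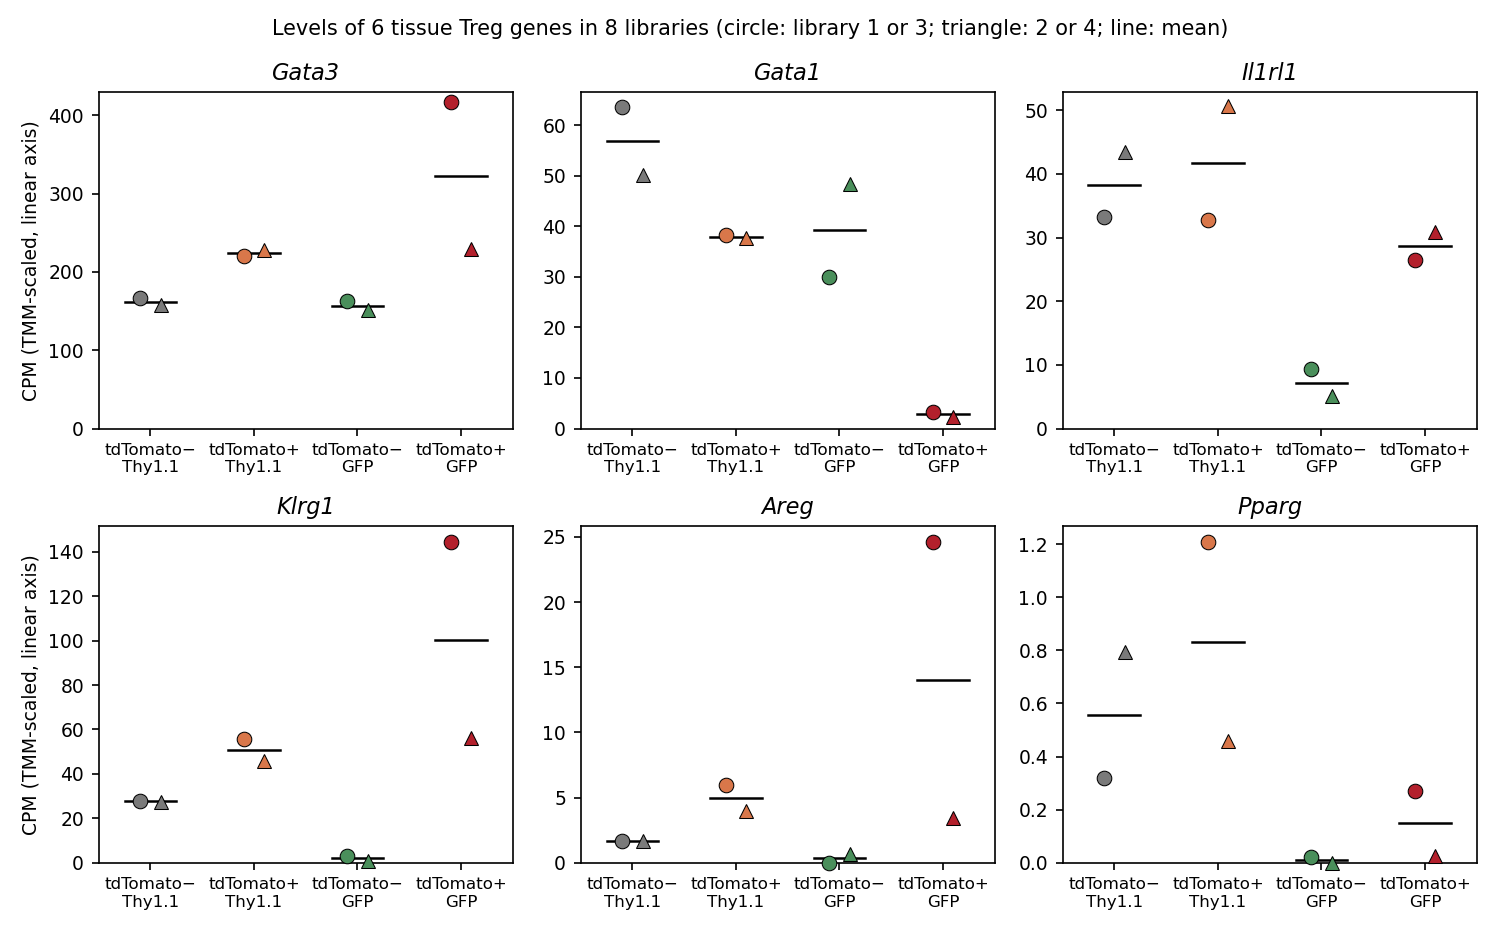
Level of each of the 6 genes in CPM (linear axes from 0, with a scale of its own per gene) in the 8 libraries, by population; circles are libraries 1 or 3, triangles libraries 2 or 4, and lines the mean of 2. Gata1 is lowest in marked (tdTomato+) GFP cells (3.23 and 2.34 CPM), while Il1rl1, Klrg1, Areg and Pparg are lowest in unmarked GFP cells.

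Areg and Pparg were the scarce genes. Areg was at 1.65 and 1.70 CPM in unmarked Thy1.1 cells, at 5.97 and 4.0 CPM in marked Thy1.1 cells, at 0 and 0.682 CPM in unmarked GFP cells and at 24.6 and 3.46 CPM in marked GFP cells. The marked populations overlapped and lay above the unmarked ones, and 1 library held 1090 of the 1219 counts of marked GFP cells. Summed over libraries, marked GFP cells had 44.2 times the Areg of unmarked GFP cells, which held 31 counts (counting interval 31.0 to 65.4). The difference did not pass (log2 5.35 ± 1.51, edgeR adjusted p = 0.0563), and it was 3.29 without marked GFP library 3 and 2.34 without both GFP libraries numbered 3 (edgeR adjusted p = 0.104). DESeq2 and a stricter filter on low counts put it past the threshold, as did leaving out unmarked or marked GFP library 4 (edgeR adjusted p of 0.0389 and 0.0312).

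Pparg had 15 and 34 counts in unmarked Thy1.1 cells, 59 and 20 in marked Thy1.1 cells, 1 and 0 in unmarked GFP cells and 12 and 1 in marked GFP cells. Every GFP library was below every Thy1.1 library, at 0.271 CPM or less. The ratio of marked to unmarked GFP cells was 14.6, with a counting interval from 2.20 to 621 (edgeR adjusted p = 0.267). The fitted log2 difference was 3.48, and 1.08 without marked GFP library 3.

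Per kilobase of exon, the 6 genes could be ordered within a population. In marked GFP cells the mean levels were 81.2 CPM per kilobase for Gata3, 70.9 for Klrg1, 11.5 for Areg, 4.15 for Il1rl1, 1.14 for Gata1 and 0.0504 for Pparg. In unmarked GFP cells they were 39.5 for Gata3, 16.1 for Gata1, 1.42 for Klrg1, 1.05 for Il1rl1, 0.281 for Areg and 0.00366 for Pparg. Areg was above Il1rl1 in marked GFP library 3 (20.2 against 3.83 CPM per kilobase) and below it in library 4 (2.85 against 4.47), so that order rested on 1 library. Gata1 stood next to Gata3 in the latter cells and last but Pparg in the former.

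Across the 8 libraries, the genes with the most similar levels were found by Pearson's r of log2(CPM + 1) among 9713 other genes (9714 for Pparg) with a mean of at least 5 CPM, as a description, since the libraries fall into 4 populations and all genes share them. Nearest to Gata3 were Tmem189 (r = 0.988), Anxa7 (0.979) and Lime1 (0.975). Nearest to Gata1 were B4galnt1 (0.995), Abca1 (0.994) and Vps37b (0.993). Abca1, the cholesterol exporter, was at 35.4 to 63.7 CPM in 6 libraries and at 10.3 and 8.25 CPM in marked GFP cells, where Gata1 was lowest too. Among the nearest to Il1rl1 were Ppm1j (0.949) and Camta2 (0.947). Nearest to Klrg1 were Kxd1 (0.985), Zcchc18 (0.983) and Slc25a53 (0.977), to Areg Fmc1 (0.975), Haghl (0.966) and Zbtb45 (0.965), and to Pparg Pex6 (0.946), Mterf3 (0.930) and Myo1e (0.910). Among the 6 genes themselves, Gata3 and Areg had an r of 0.933 (Spearman's rho 0.786), Klrg1 and Areg 0.856 (rho 0.881), Gata3 and Klrg1 0.762 (rho 0.952) and Gata3 and Gata1 -0.749 (rho -0.690), again over 8 libraries. Klrg1 and Il1rl1 had an r of 0.846 but a rho of 0.238.

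The comparison of GFP with Thy1.1 among marked cells asks how cells reported by either allele differed once marked. Gata1 fell, as given above, and no other of the 6 genes passed, where 14.8% of tested genes did (8.01% higher and 6.82% lower). The estimate for Gata3 was 0.53 ± 0.23 on the log2 scale (95% interval -0.01 to 1.06, edgeR adjusted p = 0.171). It was 0.88 without marked GFP library 4, which passed (edgeR adjusted p = 0.00514), and -0.01 without library 3, so the direction rested on 1 library. Klrg1 was at 0.99 ± 0.52 (edgeR adjusted p = 0.253), and at 0.0978 without marked GFP library 3. Il1rl1 was at -0.54 ± 0.33 (edgeR adjusted p = 0.321) and Areg at 1.49 ± 1.26 (edgeR adjusted p = 0.485). The Areg estimate was -0.58 without marked GFP library 3. Pparg had 13 counts against 79 in Thy1.1 cells, a ratio of 5.35 in favour of Thy1.1 (counting interval 2.96 to 10.49, edgeR adjusted p = 0.364), and its fitted log2 difference of -2.45 became -4.86 without marked GFP library 3.

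Among unmarked cells, 0 of the 6 genes passed between GFP and Thy1.1, where 0.164% of tested genes did (0.0643% higher and 0.1% lower). DESeq2 called Il1rl1 and Klrg1 among 573 genes in all. An unadjusted edgeR p under 0.05 was found for 3 of the 6 genes, Il1rl1, Klrg1 and Pparg, and for 1662 of the 13989 tested genes. Klrg1 was at 3.11 and 0.902 CPM in GFP cells against 27.6 CPM in both Thy1.1 libraries (log2 -3.78 ± 0.60, edgeR adjusted p = 0.0612). Il1rl1 differed by -2.40 ± 0.35 (edgeR adjusted p = 0.0525). Groups did not overlap for either gene, and the GFP library with the most myeloid and dendritic marker RNA was the higher of its pair for both. Without it the Klrg1 difference was -4.93 and that of Il1rl1 -2.92, and neither passed. Klrg1 passed without marked GFP library 3 or 4 (edgeR adjusted p down to 0.0365) and without both GFP libraries numbered 3 (edgeR adjusted p = 0.0114). Pparg had 1 count against 49 (ratio 49.9 in favour of Thy1.1, counting interval 8.54 to 2009.8, edgeR adjusted p = 0.346). The estimate for Areg was -2.29 ± 1.36 (edgeR adjusted p = 0.561), for Gata1 -0.54 ± 0.26 (edgeR adjusted p = 0.483) and for Gata3 -0.05 ± 0.23, with a 95% interval from -0.58 to 0.49 (edgeR adjusted p = 0.965). Without unmarked GFP library 3 the estimates of Areg, Gata1 and Pparg were -1.295, -0.233 and -7.63, where the last was -5.35 with all libraries.

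Between marked and unmarked Thy1.1 cells, 0 of the 6 genes passed and 0% of tested genes did by edgeR. At an unadjusted p under 0.05, edgeR had 0 of the 6 genes and 1063 of all genes, and DESeq2 called 0 of the 6 and 150 of all genes. Gata3 was estimated at 0.47 (95% interval -0.07 to 1.0), Klrg1 at 0.88 (-0.33 to 2.08), Areg at 1.57 (-1.37 to 4.51), Pparg at 0.58 (-2.95 to 4.12), Il1rl1 at 0.12 (-0.63 to 0.88) and Gata1 at -0.58 (-1.19 to 0.02), all on the log2 scale. Intervals of this width do not show that the Thy1.1 populations were alike.

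Whether the effect of the mark differed between GFP and Thy1.1 cells was tested by the interaction. Gata1 passed, as 1 of 6 genes where 0.443% of tested genes did (0.0929% higher and 0.35% lower), with an effect of the mark that was lower by 3.23 ± 0.39 on the log2 scale in GFP cells (edgeR adjusted p = 0.0176). It was past the threshold in 4 of 8 fits with 1 library left out and lost without any Thy1.1 library (edgeR adjusted p up to 0.123). The interaction of Klrg1 was 4.76 ± 0.79 (edgeR adjusted p = 0.0582) and passed without unmarked GFP library 3 or marked GFP library 4. That of Il1rl1 was 1.86 ± 0.47 (edgeR adjusted p = 0.169), and the values for Gata3, Areg and Pparg were 0.58, 3.78 and 2.90 with edgeR adjusted p of 0.508, 0.441 and 0.659. The Gata3 interaction passed without marked GFP library 4, at 0.94 (edgeR adjusted p = 0.0442), and was 0.0241 without marked GFP library 3 (edgeR adjusted p = 0.994). Without both GFP libraries numbered 3, the interactions of Gata3 and Areg were 0.14 and 0.77, and that of Klrg1 was 5.08 and passed (edgeR adjusted p = 0.00604). Without marked GFP library 3 alone, those of Areg and Pparg were 1.70 and 0.49.

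**Figure D2:**
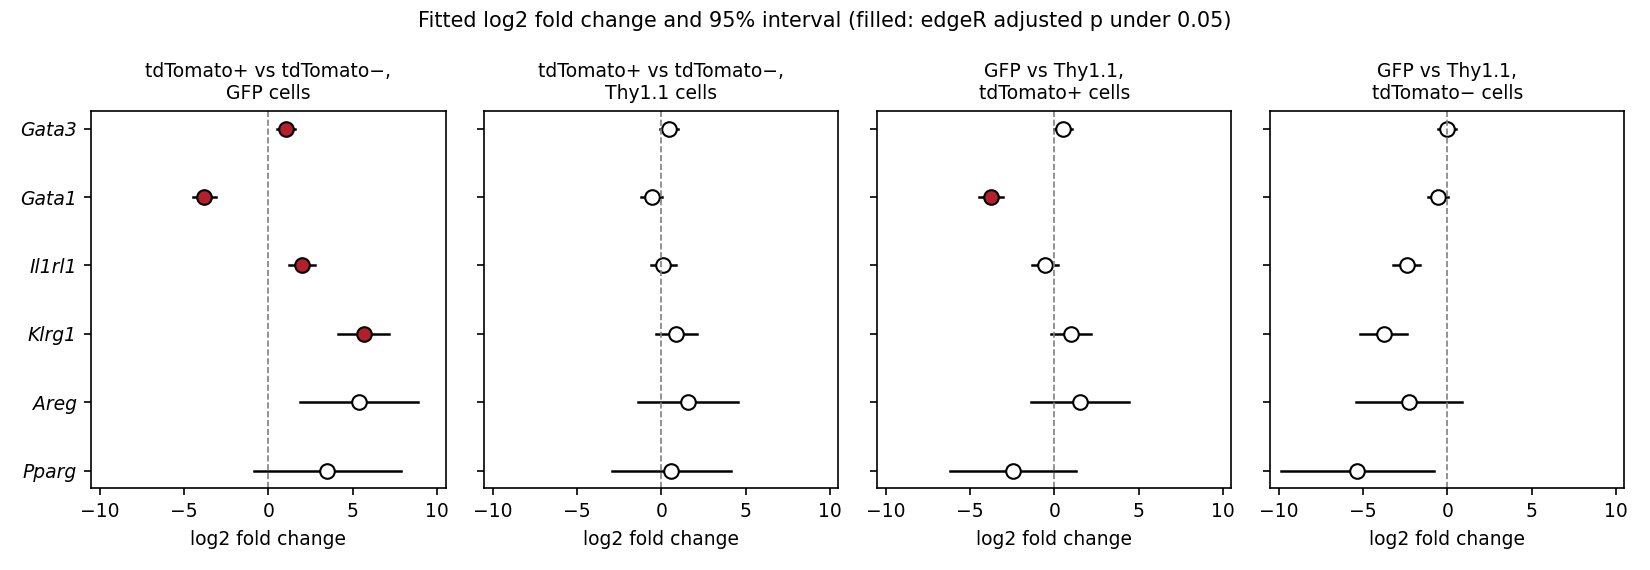
Fitted log2 fold change of each of the 6 genes with its 95% interval in the pairwise comparisons, without the interaction. Filled points have an edgeR adjusted p under 0.05. Gata1 is filled between the marked populations (-3.77) and by mark within GFP cells (-3.81). Gata3, Il1rl1 and Klrg1 are filled by mark within GFP cells, and no point is filled within Thy1.1 cells.

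**Figure D3:**
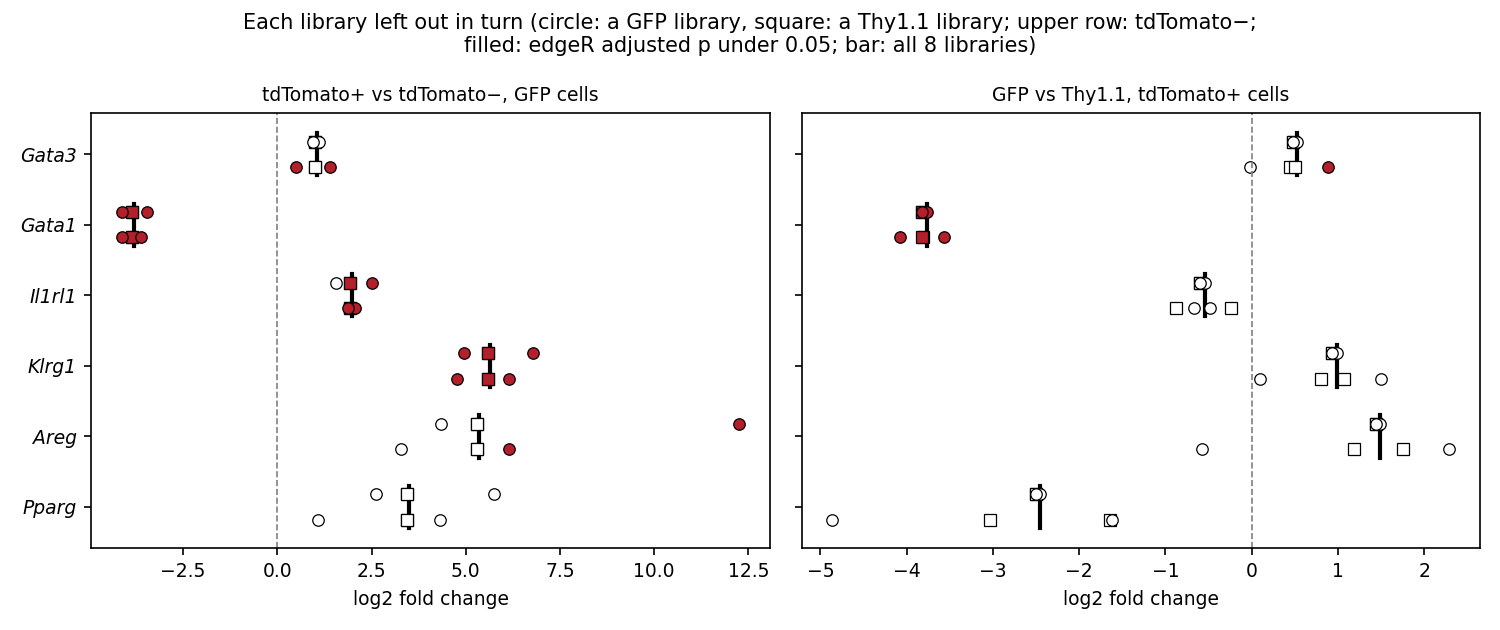
Log2 fold change of each of the 6 genes when each library was left out in turn (bar, all 8 libraries; filled, edgeR adjusted p under 0.05; circles, a GFP library left out; squares, a Thy1.1 library left out; upper row of a gene, unmarked libraries). Within GFP cells Gata1 (-4.12 to -3.47) and Klrg1 (4.76 to 6.79) are filled throughout, Il1rl1 in 7 of 8 fits and Gata3 in 2 of 8.

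The genes around these 6 were read from lists that leave them out. These lists were chosen with earlier results of these data known, so shares beside them give scale and are no test. Their counts are set against the shares of all tested genes that passed, which were 12.6% between the GFP populations, 14.8% between the marked populations and 0.443% in the interaction. The tissue Treg list (30 genes) holds factors such as Batf and Prdm1, chemokine receptors and effector molecules such as Il10. Of these, 22 rose and 1 fell between GFP populations, with a median log2 change of 1.22 against 0.03 over all tested genes. Itgae, the αE integrin of cells held in epithelium, rose by 1.44 ± 0.09 (edgeR adjusted p = 0.000286), while Nrp1, a receptor known from Treg cells of thymic origin, fell by 1.496 ± 0.16 on the log2 scale (edgeR adjusted p = 0.00245). The count of 22 was 14 without unmarked GFP library 4 and 8 when only the 4 GFP libraries were fitted. Between marked GFP and Thy1.1 cells 18 rose and 2 fell (median 1.34, against -0.01 over all tested genes), where 9 rose without marked Thy1.1 library 1 and 10 without library 2. Within Thy1.1 cells 0 of 30 passed by edgeR, and the median was 0.56. An unadjusted edgeR p under 0.05 was found for 21 of the 30, and for 1063 of all 13989 tested genes. By DESeq2 5 of the 30 rose, as did 74 of all tested genes. Without both GFP libraries numbered 3, 20 rose in each of the comparisons between GFP and between marked populations.

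Of the genes under GATA3 in Th2 cells, 17 of 19 were tested, and 5 rose and 3 fell between the GFP populations (median 0.06). Il4, the cytokine of Th2 cells, was at 0.792 to 10.4 CPM in 6 libraries and at 34.2 and 31.8 CPM in marked GFP cells (log2 4.81 ± 0.41, edgeR adjusted p = 0.00108). The chemokine receptor gene Ccr3 and the IL-25 receptor gene Il17rb rose by 2.44 and 2.96, whereas Stat5a and Stat6, factors of cytokine signalling, fell. Among 14 tested genes of the GATA family and its cofactors 2 rose and 2 fell, led by Sox4, a factor that restrains GATA3, which fell by 2.95 ± 0.31 (edgeR adjusted p = 0.00219).

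Factors that have been placed beside GATA1 in the Treg signature, with Helios (Ikzf2) and Foxp3 added, made a list of 6. Within GFP cells 0 rose and 4 fell, Satb1 by 2.16, Lef1 by 1.55, Ikzf2 by 1.29 and Ikzf4 (Eos) by 2.26, with a median of -1.42. This count was 2 without unmarked GFP library 4 and 2 with only the GFP libraries. Between marked GFP and Thy1.1 cells 5 fell and 1, Irf4, rose. Ikzf4 was at 108 and 158 CPM in unmarked GFP cells, at 12.4 and 43.4 CPM in marked GFP cells and at 194 to 247 CPM in Thy1.1 cells. Gata1 lies on the X chromosome within 500 kb of 60 other genes, Foxp3 among them. Of 29 tested neighbours 2 rose and 1 fell within GFP cells (median 0.09), and the lowest estimate was -1.21, against -3.81 for Gata1. Between marked GFP and Thy1.1 cells 3 rose and 2, Foxp3 and Gripap1, fell (median 0.06). The lowest estimate there, below the -3.77 of Gata1, was that of Ccdc120, at -8.21, which did not pass (edgeR adjusted p = 0.059). Ccdc120 had 33 and 43 counts in marked Thy1.1 cells, 67 and 18 in unmarked ones and 0 in every GFP library. The fitted value is therefore no bound. Between unmarked GFP and Thy1.1 cells the estimate for Ccdc120 was -8.36, which did not pass either.

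In the ST2 pathway, 1 of 18 tested genes rose and 2 fell between the GFP populations, near the 12.6% of all tested genes that passed. The coreceptor gene Il1rap was at 31.5 and 31.3 CPM in unmarked and at 17.7 and 39.4 CPM in marked GFP cells (edgeR adjusted p = 0.83). Il33, the ligand, rose from a sum of 1 count to counts of 72 and 74 in marked GFP cells, a level of 1.62 and 1.99 CPM (edgeR adjusted p = 0.0358), and no other library had more than 2 counts. In the EGF family list (13 tested) 0 rose and 1, the receptor gene Egfr, fell, from 67 and 244 counts to 0 and 1 (edgeR adjusted p = 0.0166), a share no higher than that of all tested genes (12.6%). Hbegf, a ligand related to Areg, had no called change (edgeR adjusted p = 0.864).

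Of 13 tested partners and coregulators of PPARγ, 1 rose and 3 fell within GFP cells. Rxra, which encodes the partner with which PPARγ binds DNA, was at 14.0 and 9.39 CPM in unmarked and at 27.9 and 36.3 CPM in marked GFP cells (log2 1.46 ± 0.27, edgeR adjusted p = 0.0158). Of 18 tested PPARγ targets 2 rose and 0 fell, and between marked GFP and Thy1.1 cells 3 rose, both near the shares of all tested genes (12.6% and 14.8%). The 3 were Plin2 (lipid droplet coat), Fabp5 (fatty acid carrier) and Ucp2 (mitochondrial carrier), which rose by 2.36, 1.72 and 0.45.

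Effector genes seen with KLRG1 (15 tested) had 5 that rose and 0 that fell within GFP cells (median 1.61), among them Gzmb, the cytotoxic protease granzyme B, by 2.98 ± 0.48 (edgeR adjusted p = 0.00924) and Tbx21, the Th1 factor T-bet, by 2.32 ± 0.34 (edgeR adjusted p = 0.00629). Genes of the naive, KLRG1-negative state (11 tested) had 10 that fell (median -1.55), and 10 fell in each of 8 fits with 1 library left out. The interaction was called lower for 6 of them, led by Id3 and Bcl2 at -2.42 and -2.39, and for Clec2i among 9 tested killer lectin genes. The lists share genes (Prdm1, Lef1, Satb1 and others), so their counts partly repeat.

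**Figure D4:**
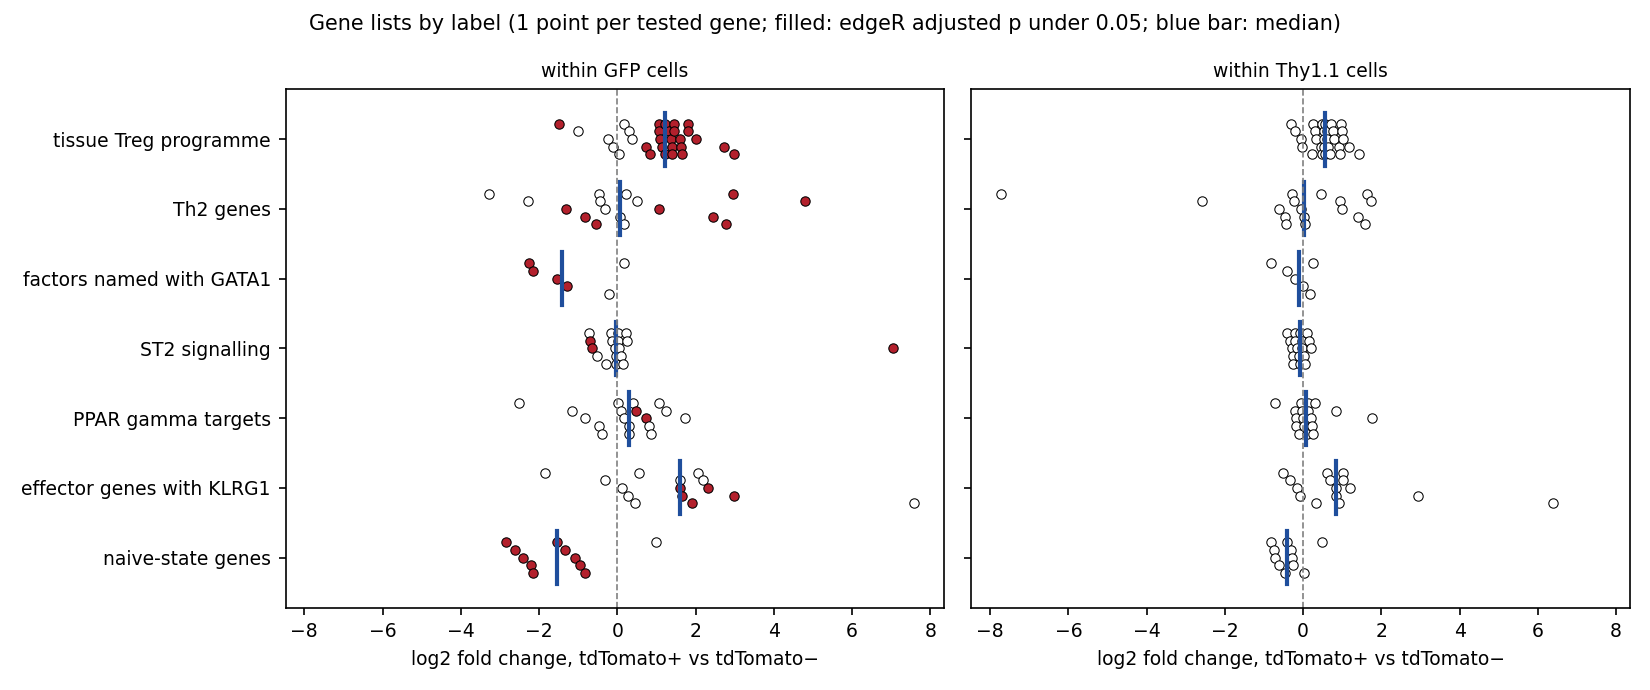
Log2 fold change of marked against unmarked cells for the tested genes of 7 lists, within GFP cells (left) and within Thy1.1 cells (right); each point is 1 gene, filled points have an edgeR adjusted p under 0.05 and blue bars are medians. In GFP cells the tissue Treg list has its median at 1.22 and the naive-state list at -1.55, and in Thy1.1 cells the medians are 0.56 and -0.42 with no filled point.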

How the data were processed

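RNA amplified with SMART-Seq v4 (12 cycles) was made into KAPA Hyper Prep libraries (8 PCR cycles) and read as 50-nt paired ends, per the labels' protocols. Strand is not marked by this kit. The authors deposited whole-number read counts per gene, not normalized, in 1 table, per the file headers. DESeq, without a version, is named by the submitters' processing notes. The aligner, counter and genome build are, like the annotation, not given in the sources used here. Of 24116 rows, 8 without a gene name (0.0215% to 0.0264% of counts) were left out. The GFP columns, numbered 3 and 4 where the titles say 1 and 2, were matched to their population only.

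With R 4.3.3 and edgeR 4.0.16, 13989 genes kept by the expression filter (minimum count 10) were fitted over all 8 libraries by the quasi-likelihood model, with TMM factors from 0.978 to 1.02 and 4 residual degrees of freedom, and the common biological coefficient of variation was 0.399. Benjamini-Hochberg adjustment ran over all tested genes. Standard errors derive from the F statistic. DESeq2 1.42.0 and other settings were alternatives, and the fit was tested on simulated data. Intervals of count ratios are exact, at 95%, and cover counting error only. Exon lengths, overlaps and neighbours came from GENCODE, which held 23406 of the 24108 symbols.

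The 6 genes and the gene and marker lists were chosen with earlier results of these data known. Named genes are the 6, the 3 most similar to each (1 of those for Il1rl1 is not reported here), up to 4 of each list per comparison by adjusted p, and Foxp3 and Thy1. Others named, such as Il1rap, Il10, Batf, Hbegf and single markers, were chosen after their values were seen.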

Additional observations from a re-analysis of the deposited data

Results flagged for a closer look

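The effect of the tdTomato mark on Gata1 differed between the reporters by a test of the difference itself. The interaction was -3.231 on the log2 scale (edgeR adjusted p = 0.0176). With 1 library left out the estimate lay between -3.547 and -2.904. As given above, the call was lost when any 1 of the Thy1.1 libraries was left out. In GFP cells Gata1 went from 30.1 and 48.4 CPM without the mark to 3.23 and 2.34 CPM with it. In Thy1.1 cells it went from 63.5 and 50.2 CPM to 38.3 and 37.7 CPM. Both unmarked GFP libraries and every marked library were below both unmarked Thy1.1 libraries. The cause was not tested.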

How the results depend on the processing

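Of 30 values (6 genes in 5 comparisons), the calls of Gata1 in both pairwise comparisons and of Klrg1 within GFP cells held under every setting run. Settings are set against edgeR counts of genes past the threshold of 2074 (GFP against Thy1.1, marked), 23 (unmarked), 1768 (by mark, GFP), 0 (by mark, Thy1.1) and 62 (interaction); the cause of each change was not tested.

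With no filter on low counts, 98 unmarked and 109 interaction genes passed, and Il1rl1 passed between unmarked cells at -2.369. With a minimum count of 50, 98 and 106 passed, as did Il1rl1 at -2.37 and Klrg1 at -3.741 (unmarked), Areg at 5.306 (by mark, GFP) and Klrg1 at 4.702 (interaction). DESeq2 called 3164, 573, 3003, 150 and 568 genes in the order above, with Il1rl1 at -2.4 and Klrg1 at -3.776 (unmarked), Areg at 5.338 (by mark, GFP), and Il1rl1 at 1.839 and Klrg1 at 4.741 (interaction). With only the 4 libraries of a comparison, and so fewer degrees of freedom, 1 unmarked gene, 300 by mark in GFP cells and 2 in Thy1.1 cells passed, and Gata3 at 1.008 and Il1rl1 at 1.953 did not. Scaling by library totals alone turned the called genes between marked populations from 1120 higher and 954 lower to 886 and 1120.

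Library numbers, odd against even, gave a replicate block, although the labels give no pairing and deviations of same-numbered libraries correlated at 0.0794 to 0.153. With this block 2214, 39, 1856, 0 and 63 genes passed, and Klrg1 passed between unmarked cells at -3.951 and in the interaction at 4.8; no other call of the 6 genes changed.

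Without both GFP libraries numbered 3, an alternative chosen after seeing the data, 2 genes passed by mark in Thy1.1 cells and 210 in the interaction, Klrg1 passed between unmarked cells at -4.931 and in the interaction at 5.082, and Areg between marked cells was -0.5221.

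With each library left out in turn, 481 to 2118 genes passed between marked populations, 0 to 75 between unmarked, 458 to 1801 by mark in GFP cells and 0 to 119 in the interaction. Between marked populations Gata3 ranged from -0.01429 to 0.8821 and Areg from -0.5755 to 2.288. Between unmarked ones Gata3 ranged from -0.1018 to 0.01081 and Klrg1 from -4.931 to -3.142. By mark in GFP cells Gata3 ranged from 0.5062 to 1.405, Il1rl1 from 1.567 to 2.5 and Areg from 3.29 to 12.25, where the last has 1 unmarked library, at 0. By mark in Thy1.1 cells Il1rl1 ranged from -0.2161 to 0.4219 and Pparg from -0.2609 to 1.401. In the interaction Gata3 ranged from 0.0241 to 0.9418, Gata1 from -3.547 to -2.904 and Klrg1 from 3.868 to 5.916. A lone library is assumed to vary like the other populations.

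Limits are the 2 libraries per population, and for Pparg counts of at most 59 per library, at which no direction of that gene was called.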
